A study of Mus musculus with 5 samples.

Results

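The genes of Wnt ligands, their receptors and their antagonists were followed in 5 RNA sequencing libraries of cultured mouse cancer-associated fibroblasts (CAFs). They were chosen by name, as the protein-coding rows of the count table for the numbered Wnt, Rspo, Fzd, Sfrp and Dkk genes together with Ror1, Ror2, Lrp5, Lrp6, Wif1, Axin1 and Axin2. This gave 48 of the 54636 rows: 19 Wnt ligands, 4 R-spondins, 10 Frizzled receptors, 2 Ror receptors, 2 Lrp coreceptors, 4 secreted Frizzled-related proteins, 4 Dickkopf proteins, Wif1 and 2 Axins. The study sequenced these cultures to see whether a subtype of CAFs was lost when myosin IIA was deleted or fibronectin knocked down. Untreated PDX CAFs, of genotype WT, grew out of patient-derived xenografts of rectal cancer. The xenografts were passaged under the skin of Nude mice, hosts without mature T cells. Control siRNA PDX CAFs and Fn1 siRNA PDX CAFs were the same type of culture 48 h after transfection with a scrambled siRNA or an siRNA against Fn1, the fibronectin gene. Myosin IIA KO CAFs came from tumors in SMA-CreERT2; R26mT/mG; myosin IIA fl/fl mice, in which tamoxifen starts recombination of Myh9 in cells with an active smooth muscle actin promoter. Cre- control CAFs were labelled as the Cre- counterpart of that strain. In the methods, tumors in this strain grew from mouse intestinal tumor organoids with activated Notch1 and deleted p53. The organoids were injected into the interscapular fat pad, after irradiation and bone marrow transplantation of the hosts. The protocol text, which is the same for all samples, gives tamoxifen at 2 µM in culture for the WT or KO CAFs. The methods name the agent as 4-hydroxytamoxifen, so treatment of the Cre- cells in culture rests on that protocol text alone. For the tumor experiments the methods also give tamoxifen injections, equal in dose for mice with Cre and Cre- controls. Whether the donors of these CAFs were among the injected mice is not stated. All 5 cultures were immortalized with SV40.

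Wnt proteins are secreted, lipid-modified signals that bind Frizzled receptors on the cell surface. With the coreceptors Lrp5 and Lrp6 they stop a complex built on Axin from destroying β-catenin, which then activates target genes with TCF and LEF factors, and with Ror receptors they act on cell shape and movement without β-catenin. R-spondins keep Frizzled receptors on the surface through the receptors Lgr4, Lgr5 and Lgr6. Secreted Frizzled-related proteins and Wif1 bind Wnts, and Dickkopf proteins other than the divergent Dkk3 bind Lrp5 and Lrp6. Below, the Sfrp and Dkk genes and Wif1 are counted as secreted antagonists by family, Dkk3 included. In the intestine, fibroblasts under the epithelium are a known source of Wnts, R-spondins and antagonists.

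The libraries held 22961620 to 26596351 counts, 1 library per condition, so no value here has a replicate error and no difference was tested between conditions. Levels are given as CPM, counts scaled to a common library size with TMM over all 5 libraries, and ratios as log2 ratios of TMM-scaled counts within a pair, with 0.5 added to each count. The 95% intervals cover counting error alone. A floor of 3 counts, about the 1-sided 95% upper limit for a count of 0, corresponds to 0.108 to 0.135 CPM. The 2-sided intervals for a count of 0 reach 0.133 to 0.166 CPM. The targeted genes were lower as labelled, Myh9 at 425 CPM in KO against 2419 CPM in Cre- control cultures and Fn1 at 1282 CPM with Fn1 siRNA against 4778 CPM with control siRNA. The 8 fibroblast markers were at 1 CPM or more in all 5 libraries, and the 5 immune and 6 epithelial markers summed to at most 0.145 and 0.868 CPM. Of 8 adipocyte markers, the summed level was 406.5 to 555.5 CPM in the PDX cultures, 973 CPM in the Cre- control and 3491 CPM in KO CAFs, where 7 of 8 were over 2-fold higher than in the control. Adipoq, an adipocyte hormone gene, had 0 counts in the PDX cultures and was at 18.9 and 159 CPM in Cre- control and KO CAFs. Mitochondrial genes took 1.55% of the counts in KO CAFs and 0.826% to 1.04% in the other libraries. The part of these differences in the results below was not tested, and in bulk RNA fewer cells of a type cannot be told apart from less RNA per cell.

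The promoters of 3 of these genes are shown because, among genes that reached 1 CPM in a pair, their ratios lay farthest from 0. These were Axin2 in KO against Cre- control CAFs, Wnt11 after control transfection and Dkk2 between the tumor sources. Each window runs from 250 bases before to 50 bases after the RefSeq start on GRCm38.p6, the build of the files (mm10). The sites are chr11:108920099-108920398 for Axin2, chr7:98834862-98835161 for Wnt11, the window at the more upstream of its listed starts, and chr3:132085042-132085341 for Dkk2, all on the plus strand. Capitals mark the letters CTTTGAT or CTTTGAA, a core bound by TCF and LEF factors, searched on both strands.
Axin2: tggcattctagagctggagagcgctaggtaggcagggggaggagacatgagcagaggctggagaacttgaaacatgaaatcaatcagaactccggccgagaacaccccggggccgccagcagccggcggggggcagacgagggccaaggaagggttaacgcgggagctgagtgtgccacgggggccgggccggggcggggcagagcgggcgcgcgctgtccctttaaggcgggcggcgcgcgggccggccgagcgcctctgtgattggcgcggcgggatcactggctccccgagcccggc
Wnt11: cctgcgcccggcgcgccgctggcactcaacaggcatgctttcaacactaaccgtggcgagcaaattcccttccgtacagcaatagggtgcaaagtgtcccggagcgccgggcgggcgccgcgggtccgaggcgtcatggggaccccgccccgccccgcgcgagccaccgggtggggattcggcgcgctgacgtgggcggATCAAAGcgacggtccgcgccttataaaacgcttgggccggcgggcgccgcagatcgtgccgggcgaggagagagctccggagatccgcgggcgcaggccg
Dkk2: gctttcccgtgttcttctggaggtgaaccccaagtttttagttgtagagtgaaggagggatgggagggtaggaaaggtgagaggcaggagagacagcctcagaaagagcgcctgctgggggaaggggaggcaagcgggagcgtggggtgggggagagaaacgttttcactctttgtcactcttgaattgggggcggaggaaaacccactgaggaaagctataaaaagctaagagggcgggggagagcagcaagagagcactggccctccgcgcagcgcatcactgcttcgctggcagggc
The Wnt11 window held CTTTGAT on the minus strand, 51 bases before the start, and the other 2 windows held neither word. Of the 48 genes, 31 were in the promoter table, with 34 windows, and 3 of these windows (Dkk1, Wnt5b and Wnt11) held a match. That is 8.82% of the windows, against 8.65% of 32851 windows of all genes, and a match of letters is not a measured binding site.

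Of the 48 genes, 23 reached 1 CPM in all 5 libraries and 31 in at least 1. The other 17 stayed below 1 CPM throughout, 10 of them Wnt ligands, and Wnt3a, Wnt8a, Wnt8b, Wnt9b and Dkk4 had 0 counts in every library. Summed over the 48 genes, the level was 1384 CPM in untreated, 1003 CPM in control siRNA and 1020.0 CPM in Fn1 siRNA PDX CAFs. It was 2753 CPM in Cre- control and 2989 CPM in KO CAFs. The receptors and secreted antagonists made up most of this sum, with 417 CPM of Frizzled and 436 CPM of Sfrp transcripts in untreated PDX CAFs against 47.6 CPM of all Wnt ligands. The 2 cultures from floxed mice held about the same sum of ligands as the PDX cultures, 56.2 and 65.2 CPM, but 1345 and 1337 CPM of Frizzled transcripts.

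**Figure D1:**
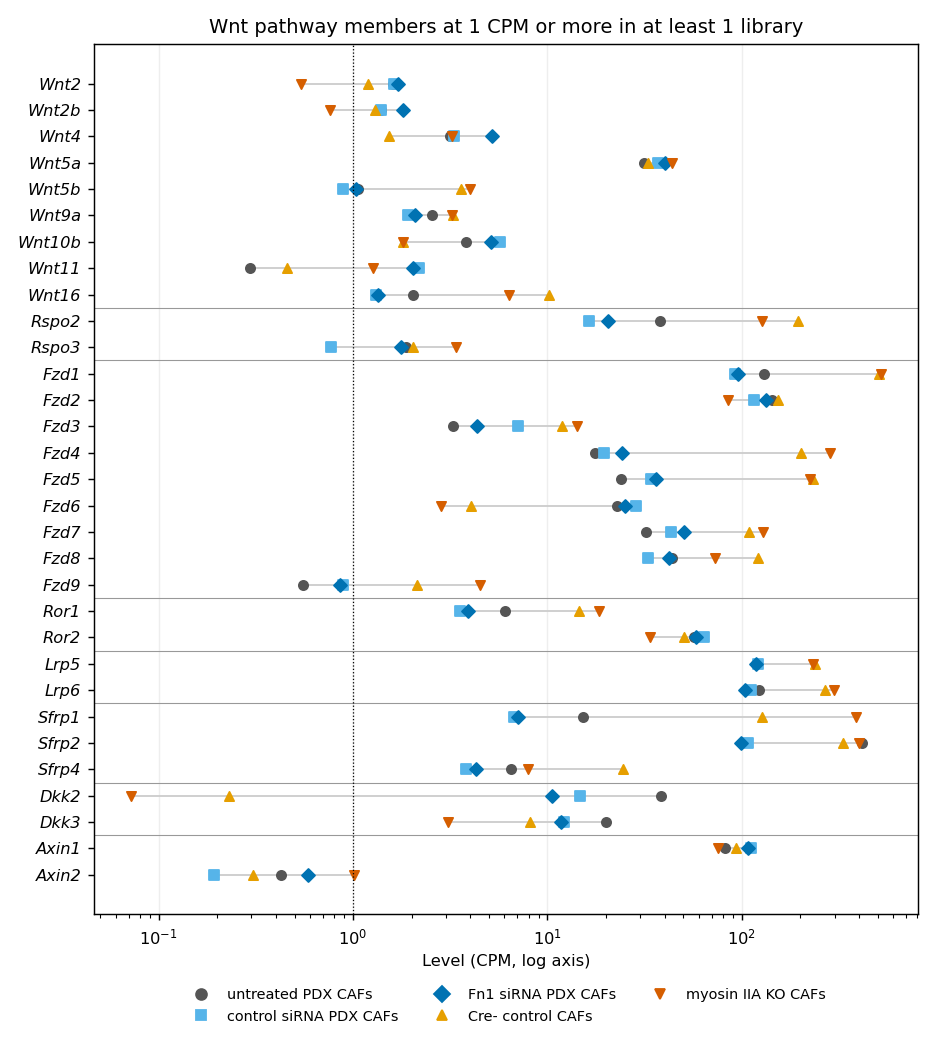
Level of the 31 genes that reached 1 CPM in any library, in CPM on a log axis, with a point for each of the 5 libraries, a gray line over their range, solid lines between families and a dotted line at 1 CPM. Dkk2 and Fzd6 lie lower in Cre- control and KO CAFs than in the PDX cultures, while Fzd1, Fzd4, Fzd5 and Sfrp1 lie higher.

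Among the Wnt ligands, 9 of 19 reached 1 CPM in at least 1 library and 5 in all 5. Wnt5a, the main ligand of the Ror receptors, on chromosome 14 from 28504750 to 28527448, had the highest level per length in every library, between 3.99 and 5.60 CPM per kb of transcript. It was at 31.3 CPM in untreated, 37.2 CPM in control siRNA and 40.0 CPM in Fn1 siRNA PDX CAFs, 32.7 CPM in Cre- control and 43.8 CPM in KO CAFs. Its share of all ligand transcripts per length was 38.9% in Cre- control CAFs and 45.4% to 48.1% in the other libraries. Per length, Wnt10b and Wnt16 followed in mean level. Wnt10b, a ligand of the β-catenin branch, was at 3.81, 5.73 and 5.14 CPM in untreated, control siRNA and Fn1 siRNA PDX CAFs and at 1.80 and 1.81 CPM in Cre- control and KO CAFs. Wnt16 showed the reverse order, with 2.03, 1.31 and 1.35 CPM in the same PDX cultures against 10.1 CPM in Cre- control and 6.37 CPM in KO CAFs. So Wnt16 made up 21.6% of ligand transcripts per length in Cre- control CAFs and 2.82% to 5.30% in the PDX cultures.
Wnt5b, a relative of Wnt5a, was at 1.06, 0.885 and 1.04 CPM in untreated, control siRNA and Fn1 siRNA PDX CAFs and at 3.60 and 3.98 CPM in Cre- control and KO CAFs. Wnt4, which acts in kidney and gonad development, was highest with Fn1 siRNA at 5.18 CPM and lowest in Cre- control CAFs at 1.53 CPM, with 3.13, 3.31 and 3.22 CPM in untreated, control siRNA and KO CAFs. Wnt2, a stromal ligand of the β-catenin branch, was at 1.61 to 1.71 CPM in the PDX cultures, 1.19 CPM in Cre- control and 0.543 CPM in KO CAFs. These ligands were low, so their ratios rest on few counts.
Wnt11, a ligand of the branch that acts without β-catenin, lies on chromosome 7 from 98835112 to 98855195. It was at 0.296 CPM (7 counts) in untreated PDX CAFs, 2.19 CPM (57 counts) with control siRNA, 2.03 CPM (45 counts) with Fn1 siRNA, 0.459 CPM (12 counts) in Cre- control and 1.27 CPM (35 counts) in KO CAFs. Both transfected cultures were thus above the other 3 libraries. Predicted genes on the opposite strand overlap 8.80% of the exon bases of Wnt11, and the sources used here do not say whether reads were counted by strand. Wnt9a, at 1.92 to 3.25 CPM, and Wnt2b, at 0.760 to 1.80 CPM, stayed within 2-fold in all 4 comparisons described below.

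The R-spondins were represented mainly by Rspo2, which took 87.5% to 98.3% of R-spondin transcripts per length. Rspo2, on chromosome 15 from 43020794 to 43170826, was at 38.1 CPM in untreated, 16.3 CPM in control siRNA and 20.4 CPM in Fn1 siRNA PDX CAFs, 195.5 CPM in Cre- control and 127 CPM in KO CAFs. Rspo3, the R-spondin of stroma near intestinal crypts in mice, was at 1.86, 0.769, 1.76, 2.03 and 3.40 CPM in the same order. Rspo1 was found in KO CAFs only, at 0.470 CPM (13 counts, 95% interval 0.250 to 0.804 CPM). Against the 0 counts of Cre- control CAFs, the lower 95% limit of its log2 ratio was 1.53. Rspo4 had 1 count in Cre- control CAFs and 0 elsewhere.

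**Figure D2:**
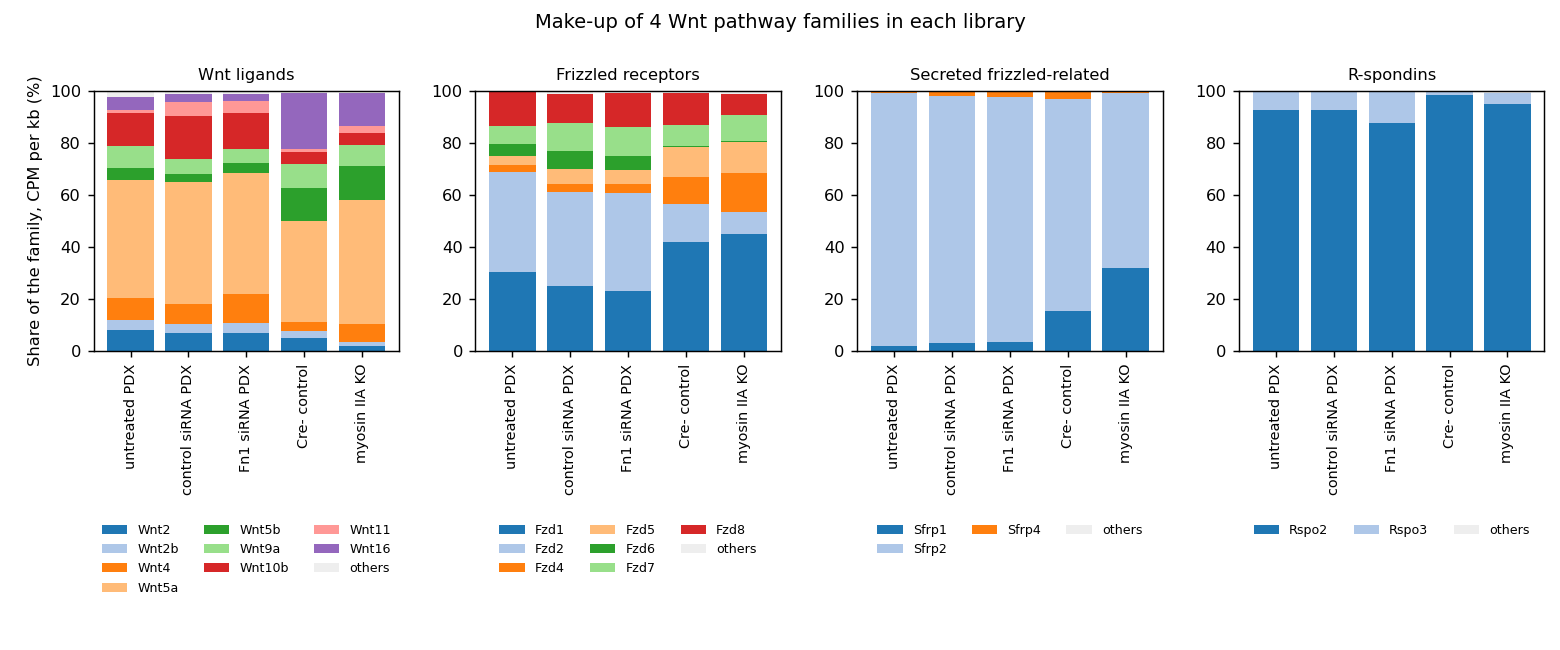
Share of each gene in the summed level of its family, in percent of CPM per kb, for the Wnt ligands, Frizzled receptors, secreted Frizzled-related proteins and R-spondins, with a stacked bar for each of the 5 libraries and gray for the remaining genes. Wnt5a and Rspo2 lead their families in each bar, while Fzd1 overtakes Fzd2 and Sfrp1 takes a larger share in Cre- control and KO CAFs.

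Of the 10 Frizzled receptors, 9 reached 1 CPM in at least 1 library. With the lengths of the count table, Fzd1, Fzd2 and Fzd8 had the highest mean level per length over the 5 libraries. The table gives Fzd8 a length of 3346 bases, against 5974 exon bases in GENCODE M21, with which its mean went from 18.7 to 10.5 CPM per kb and its rank from 3 to 6, an alternative chosen after seeing the data. The order also differed between cultures. Fzd2, on chromosome 11, led in the PDX cultures at 31.4 to 39.1 CPM per kb against 22.0 to 30.9 CPM per kb of Fzd1. Fzd1, on chromosome 5, led in Cre- control and KO CAFs at 121.6 and 124 CPM per kb against 42.0 and 23.1 CPM per kb of Fzd2. In KO CAFs, Fzd4 at 42.2, Fzd5 at 32.6 and Fzd7 at 28.5 CPM per kb were also above Fzd2. In CPM, Fzd1 was at 129.8, 92.4 and 95.1 in untreated, control siRNA and Fn1 siRNA PDX CAFs and at 510.3 and 519.5 in Cre- control and KO CAFs. Fzd2 was at 143, 115, 134, 154 and 84.6 CPM in the same order, lowest in KO CAFs. The 2 receptors are close relatives, and the sources used here do not say how reads that match both were assigned.
Fzd4, the receptor of norrin and of Wnts, was at 17.6, 19.5 and 24.1 CPM in untreated, control siRNA and Fn1 siRNA PDX CAFs and at 202 and 283 CPM in Cre- control and KO CAFs. Fzd5, a receptor of the β-catenin branch, was at 23.9, 34.1, 36.0, 232 and 225 CPM in the same order, with 17.8% of its exon bases overlapped by a predicted gene on the opposite strand. Fzd6, known for planar cell polarity in mouse skin, went the other way, with 22.7, 28.6 and 25 CPM in the PDX cultures and 4.06 and 2.82 CPM in Cre- control and KO CAFs. Fzd7 and Fzd8 were at 32.2 to 50.1 and 32.9 to 43.7 CPM in the PDX cultures, at 108 and 120.5 CPM in Cre- control and at 129 and 73.2 CPM in KO CAFs. Fzd3 ranged from 3.26 CPM in untreated PDX to 14.3 CPM in KO CAFs, and Fzd9 from 0.551 to 4.49 CPM in the same libraries.
Ror2, a receptor of Wnt5a, was the higher Ror receptor per length in all 5 libraries, at 56.6, 64.0 and 58.3 CPM in untreated, control siRNA and Fn1 siRNA PDX CAFs and 50.2 and 33.5 CPM in Cre- control and KO CAFs. Ror1, its relative, was at 6.01, 3.54, 3.92, 14.5 and 18.4 CPM in that order. The coreceptors were closer to each other, with Lrp5 at 118 to 120.4 CPM and Lrp6 at 103 to 122 CPM in the PDX cultures. In Cre- control and KO CAFs, Lrp5 was at 238 and 232.5 CPM and Lrp6 at 266 and 297.5 CPM.

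Among the secreted antagonists, Sfrp2, on chromosome 3 from 83766321 to 83774316, had the highest level per length in every library. Its level was 414 CPM in untreated, 107 CPM in control siRNA and 99.5 CPM in Fn1 siRNA PDX CAFs, 331 CPM in Cre- control and 400.3 CPM in KO CAFs. Both transfected cultures were therefore well below the 3 others. A predicted gene on the opposite strand overlaps 16.1% of its exon bases.
Sfrp1, on chromosome 8 from 23411502 to 23449632, was at 15.2, 6.73 and 7.07 CPM in untreated, control siRNA and Fn1 siRNA PDX CAFs, 126 CPM in Cre- control and 387 CPM in KO CAFs. Its share of the family per length went from 1.76% in untreated PDX to 32.0% in KO CAFs. Sfrp4 was at 6.52, 3.81, 4.28, 24.6 and 7.96 CPM in the same order, highest in Cre- control CAFs.
Dkk2, an antagonist at Lrp5 and Lrp6, lies on chromosome 3 from 132085292 to 132180304. It had 904, 384 and 233 counts in untreated, control siRNA and Fn1 siRNA PDX CAFs and 6 and 2 counts in Cre- control and KO CAFs, that is 38.3, 14.8, 10.5, 0.230 and 0.0723 CPM. The intervals for these levels were 9.19 to 11.9 CPM with Fn1 siRNA and 0.0842 to 0.50 CPM in Cre- control CAFs. Dkk3, the divergent member of the family, was at 19.99, 12.2, 11.7, 8.11 and 3.07 CPM, lowest in KO CAFs. Dkk1, a target and inhibitor of the β-catenin branch, had at most 2 counts in a library, and Wif1 had at most 7.
Of the 2 scaffolds of the destruction complex, Axin1 was at 82.3, 112, 107.5, 93.6 and 75.7 CPM. Axin2, which is also a standard target gene of β-catenin, was near the limit of these libraries, with 10, 5 and 13 counts in untreated, control siRNA and Fn1 siRNA PDX CAFs and 8 and 28 counts in Cre- control and KO CAFs. These are 0.424, 0.192, 0.586, 0.306 and 1.01 CPM, and KO CAFs alone passed 1 CPM, with an interval of 0.673 to 1.46 CPM.

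Loss of myosin IIA was followed in KO against Cre- control CAFs. These are separate cultures, with and without Cre. The deletion cannot be told apart from other differences between them, such as donor mouse, tumor and culture history. Of the 30 genes that reached 1 CPM in either library, 5 were over 2-fold higher and 3 over 2-fold lower, beside 3.29% and 1.70% of 13326 genes in general. The median log2 ratio was 0.017 over the 30 genes and -0.005 over all genes, with genes on both sides of 0. Those higher were a target gene, an antagonist, 2 ligands and a receptor, and those lower were 2 antagonists and a ligand.
The secreted antagonists did not move as a group. Sfrp1 was higher with a log2 ratio of 1.61 (95% interval 1.56 to 1.67), the only one of the 5 higher genes whose whole interval lay above 2-fold. Sfrp4 was lower at -1.63 (-1.86 to -1.40) and Dkk3 at -1.39 (-1.78 to -1.03), and Sfrp2 stayed within 2-fold at 0.27.
Among the ligands, Wnt11 was higher at 1.43 (0.48 to 2.54) and Wnt4 at 1.06 (0.52 to 1.65). Wnt2 was lower at -1.10 (-2.12 to -0.20), from 31 to 15 counts. Wnt5a had a ratio of 0.42 (0.29 to 0.55) and Wnt16 of -0.67. The R-spondins went apart as well, with Rspo2 at -0.62 (-0.69 to -0.56) and Rspo3 at 0.74 (0.24 to 1.26).
Of the receptors, Fzd9 alone passed 2-fold, at 1.06 (0.60 to 1.55). Fzd2 at -0.86, Fzd8 at -0.72, Ror2 at -0.58 and Fzd6 at -0.52 were lower within 2-fold, and Fzd4 at 0.49 and Ror1 at 0.35 higher. Fzd1 at 0.03, Fzd5 at -0.04 and Lrp5 at -0.04 were nearly level. Axin2 was higher at 1.67 (0.55 to 3.07), on 28 against 8 counts, and Axin1 was at -0.31.
The adipocyte markers moved in the same comparison, with a median log2 ratio of 2.98 over 8 genes. The 8 fibroblast markers had a median of -0.34, and 1 of them, Acta2 at -1.19, was over 2-fold lower. Of 2 skeletal muscle markers measured, Acta1 was lower at -1.385 and Des higher at 1.225. The part of these markers in the ratios above was not tested, and the counts above come from 1 library each.

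**Figure D3:**
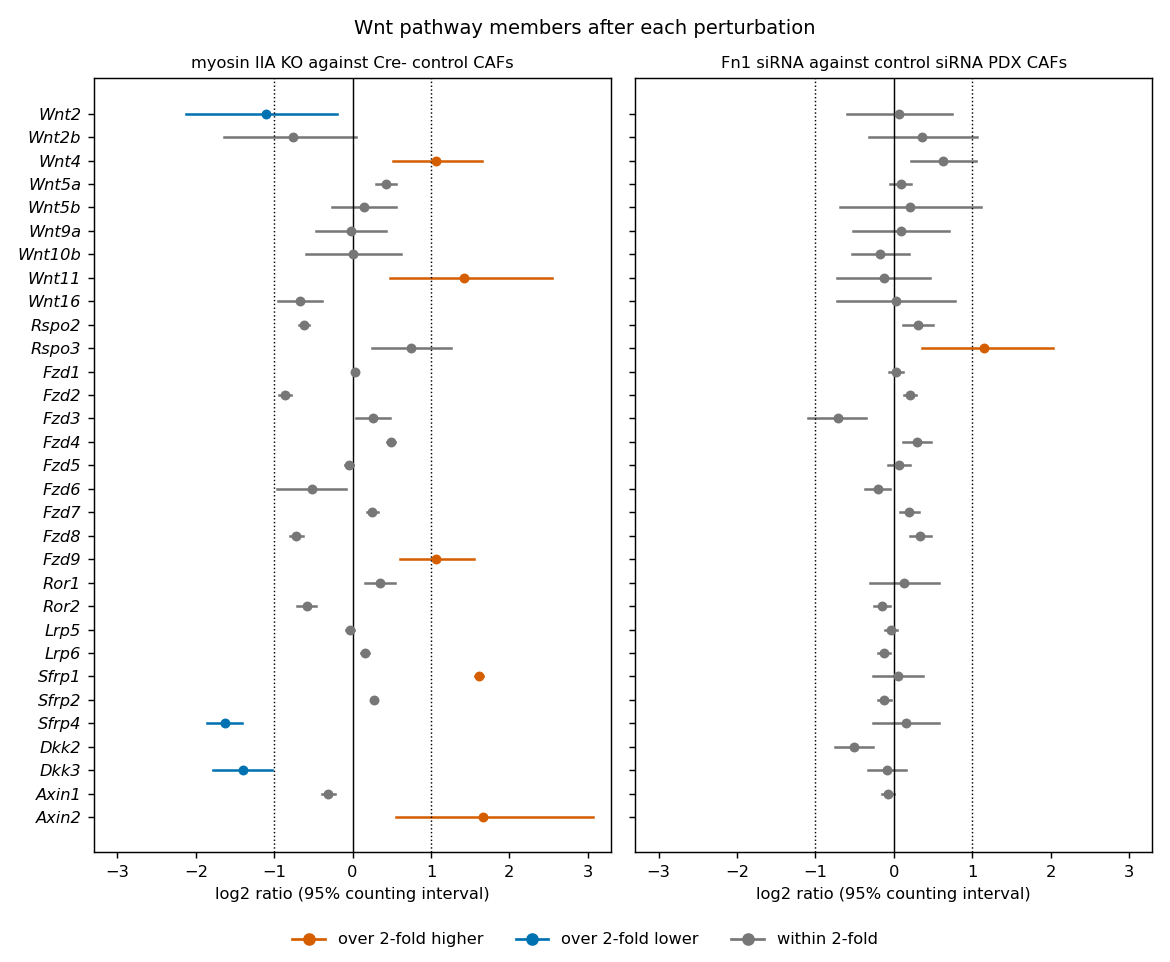
Log2 ratio of each gene that reached 1 CPM in a pair, for KO against Cre- control CAFs (left) and Fn1 siRNA against control siRNA PDX CAFs (right), with 95% intervals for counting error as bars and dotted lines at 2-fold. The left panel has 8 genes past 2-fold and the right panel has Rspo3 alone; Dkk2 (left) and Fzd9 and Axin2 (right) were below 1 CPM in both libraries and have no point.

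Knockdown of fibronectin was followed in Fn1 siRNA against control siRNA PDX CAFs. In this pair most genes differed little, with 12892 of all 13009 genes compared within 2-fold. Of the 29 Wnt pathway genes among them, 28 lay within 2-fold, 1 was over 2-fold higher and 0 were over 2-fold lower, beside 0.523% and 0.377% of 13009 genes. The median log2 ratio was 0.066 over the 29 genes, against -0.003 for all genes. The gene past 2-fold was Rspo3, with 20 counts under control siRNA and 39 under Fn1 siRNA and a log2 ratio of 1.16 (0.37 to 2.03). With 5 counts added in place of 0.5 its ratio was 0.997, just inside 2-fold, and a predicted gene on the opposite strand overlaps 13.1% of its exon bases. Its level of 1.76 CPM with Fn1 siRNA lay near the 1.86 CPM of untreated PDX CAFs.
The other ratios ran from -0.71 for Fzd3 (-1.09 to -0.35) to 0.63 for Wnt4 (0.22 to 1.05). Dkk2 had a ratio of -0.51 (-0.75 to -0.27), Fzd8 of 0.34, Rspo2 of 0.31 and Fzd4 of 0.29. Fzd2 was at 0.21 (0.13 to 0.28), Sfrp2 at -0.12, Wnt5a at 0.09, Fzd1 at 0.03 and Lrp5 at -0.03. Axin2, below 1 CPM in both libraries, had 5 counts under control siRNA and 13 under Fn1 siRNA.

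Control siRNA against untreated PDX CAFs has no targeted gene and holds the transfection together with any difference between the cultures, which cannot be told apart. It shares the control siRNA library with the fibronectin comparison, so the values stand side by side only. Of 29 genes compared, 2 were over 2-fold higher and 5 over 2-fold lower, beside 2.98% and 2.74% of 13125 genes, with a median log2 ratio of -0.13 against -0.01 for all genes.
All 5 secreted antagonists measured were lower in the transfected culture, 3 of them by over 2-fold, beside 6783 of 13125 genes below 0. Antagonists outside these families went both ways, with Draxin at -0.74, Apcdd1 at -0.42, Igfbp4 at -0.34, Tpbg at 0.03 and Bambi at 0.57. Within the families, the ratios were as follows. Sfrp2 had a ratio of -1.95 (-2.01 to -1.89), Dkk2 of -1.37 (-1.55 to -1.20) and Sfrp1 of -1.17 (-1.44 to -0.91), while Sfrp4 was at -0.77 and Dkk3 at -0.71. Both R-spondins measured were lower too, Rspo3 at -1.25 (-2.12 to -0.48) and Rspo2 at -1.22 (-1.40 to -1.06).
Wnt11 was higher at 2.81 (1.75 to 4.27), and Fzd3 at 1.10 (0.72 to 1.51). The remaining Frizzled receptors lay between -0.49 for Fzd1 and 0.51 for Fzd5. Wnt5a was at 0.25 and Wnt10b at 0.59. Markers of cell state moved in the same pair, in both directions within a list. The actins Acta2 and Acta1 were at 1.68 and 2.43 and the pericyte marker Cspg4 at 1.90. Of the 3 adipocyte markers measured, Fabp4 was at -1.28 and Lpl at -0.51, but Pparg at 0.94. The fibroblast marker Pdgfra was at -0.89, while the median over the 8 fibroblast markers, which include Acta2, was 0.05. Of the full lists, 1 of 8 fibroblast, 1 of 2 skeletal muscle and 1 of 1 pericyte markers measured were over 2-fold higher and 1 of 3 adipocyte markers lower, and their part in the ratios above was not tested.

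Cre- control against untreated PDX CAFs compares cultures from floxed mice and from xenografts. Host strain, host irradiation and marrow transplantation, tumor, engraftment site and culture history differ between them, as may exposure to tamoxifen. They cannot be told apart. Of 29 genes compared, 15 were over 2-fold higher in Cre- control CAFs and 5 over 2-fold lower, beside 10.9% and 8.43% of 13537 genes. The median log2 ratio was 1.02 over the 29 genes and -0.03 over all genes.
The receptors made up most of the higher genes, with 7 of 9 Frizzled receptors, Ror1, Lrp5 and Lrp6. Fzd4 had a ratio of 3.52 (3.38 to 3.67), Fzd5 of 3.28 (3.15 to 3.41), Fzd1 of 1.98 (1.92 to 2.03), Fzd9 of 1.92, Fzd3 of 1.86, Fzd7 of 1.75 and Fzd8 of 1.46. Ror1 was at 1.26, Lrp6 at 1.13 and Lrp5 at 1.02 (0.96 to 1.08). Fzd6 was lower at -2.48 (-2.80 to -2.18), while Fzd2 at 0.10 and Ror2 at -0.17 were close to level.
The antagonists lay on both sides of 0. Sfrp1 was higher at 3.06 (2.90 to 3.22) and Sfrp4 at 1.91 (1.66 to 2.18), while Sfrp2 was at -0.32 (-0.36 to -0.28), Dkk2 was lower at -7.26 (-8.83 to -6.25) and Dkk3 at -1.30 (-1.54 to -1.06). Dkk2 was thus near the floor in both cultures from floxed mice.
Of the ligands, Wnt16 was higher at 2.31 (1.87 to 2.79) and Wnt5b at 1.75 (1.11 to 2.46), and Wnt10b was lower at -1.07 (-1.62 to -0.56) and Wnt4 at -1.02 (-1.63 to -0.46). Rspo2 was higher at 2.36 (2.26 to 2.46), and Wnt5a was level at 0.07. In the same comparison 5 of 8 fibroblast markers were over 2-fold higher and 6 of 7 adipocyte markers. So were 2 of 2 skeletal muscle and 2 of 2 pericyte markers measured, while of 2 endothelial markers 1 was higher and 1 lower. The part of these markers in the ratios above was not tested.

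**Figure D4:**
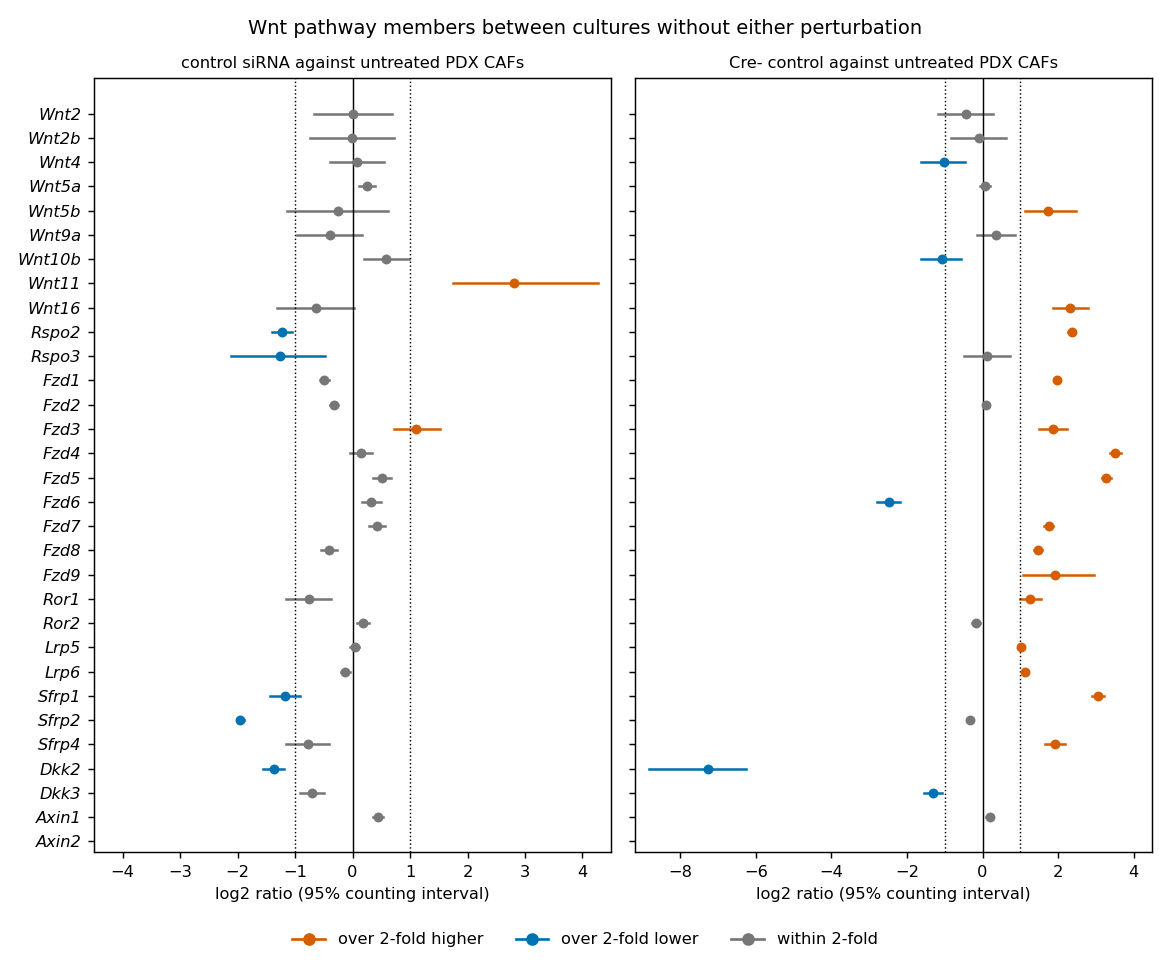
Log2 ratio of each gene that reached 1 CPM in a pair, for control siRNA (left) and Cre- control CAFs (right) against untreated PDX CAFs, with 95% intervals for counting error as bars, dotted lines at 2-fold and different axis ranges. On the left the Sfrp, Dkk and Rspo genes all lie below 0, and on the right most Frizzled receptors lie above 2-fold with Fzd6 and Dkk2 far below; Axin2 in both panels, Fzd9 on the left and Wnt11 on the right, below 1 CPM in both libraries of the pair, have no point.

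Side by side over the 4 comparisons, 25 of the 48 genes passed 2-fold at least once. The 48 include 17 that stayed below 1 CPM and were not compared. The share of all genes that passed at least once was not computed, so this count has no background beside it. Comparisons that share a library are not independent, as Cre- control CAFs are the control of the KO and the first term of the comparison with untreated PDX CAFs. Wnt5a was within 2-fold in all 4.

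The rest of the pathway was read from 7 lists of genes, 102 entries in all. Beside the list counts below stand the shares of all compared genes past 2-fold. These were 3.29% higher and 1.70% lower for myosin IIA loss, and 0.523% and 0.377% for fibronectin knockdown. They were 2.98% and 2.74% for control transfection, and 10.9% and 8.43% between the tumor sources. With shares this small in both perturbations, a count of 0 in a short list cannot set it apart from other genes. For secretion and modification of Wnts, 6 of 6 genes were measured, and Wls, the carrier that takes Wnts to the surface, was at 302 to 369 CPM in all 5 libraries. Notum, an enzyme that removes the lipid from Wnts and is also a β-catenin target, was the 1 gene past 2-fold in KO CAFs, at 0.612 CPM in Cre- control and 2.02 CPM in KO CAFs, with a log2 ratio of 1.70 (0.90 to 2.63). It was at 1.91, 1.85 and 1.13 CPM in untreated, control siRNA and Fn1 siRNA PDX CAFs, and its ratio after fibronectin knockdown was -0.72.
The receptors of R-spondins differed between the tumor sources. Lgr5 was at 0.212, 0 and 0.0901 CPM in untreated, control siRNA and Fn1 siRNA PDX CAFs and at 9.68 and 10.6 CPM in Cre- control and KO CAFs. Lgr6 had the opposite order, with 37.8, 53.7 and 42.8 CPM against 1.19 and 0.615 CPM. Their log2 ratios between Cre- control and untreated PDX CAFs were 5.39 (4.27 to 7.15) and -4.97 (-5.56 to -4.48), and Lgr4 was at 19.3 to 37.7 CPM throughout. None of the 4 genes measured on this list passed 2-fold in KO CAFs, where Lgr6 was at -0.93 and Lgr4 at 0.79, and none of 3 after fibronectin knockdown, where Lgr6 was at -0.34.
Of the other receptors and coreceptors, 0 of 9 passed 2-fold in either perturbation. Their ratios farthest from 0 were 0.76 for Tspan12, a partner of Fzd4, and 0.50 for the glypican Gpc6 in KO CAFs, and 0.44 for the glypican Gpc4 with Fn1 siRNA. Between Cre- control and untreated PDX CAFs 4 of 9 were over 2-fold higher, Gpc4 at 1.81, Gpc6 at 1.73, Reck at 1.56 and Tspan12 at 1.20.
Of the other antagonists, 6 of 12 were measured in KO against Cre- control CAFs, and Draxin alone passed 2-fold, from 5.85 to 12.4 CPM (log2 ratio 1.08, 0.80 to 1.36). Apcdd1 was at -0.97 (-1.13 to -0.81) there. With Fn1 siRNA 0 of 5 passed, with Draxin at -0.46 and Apcdd1 at 0.22. Frzb, another Wnt-binding protein of the Sfrp type, had 1 count in each PDX library and was at 11.9 and 16.2 CPM in Cre- control and KO CAFs, and the Wnt inhibitor Igfbp4 was at 18.9 to 23.9 CPM against 369 and 482 CPM.
In the core of the pathway, Ctnnb1, which encodes β-catenin, was at 479 to 544 CPM in all 5 libraries. Of the genes of the destruction complex, Dishevelled and the nuclear factors, 0 of 24 passed 2-fold in KO CAFs, where Tcf7l2 was farthest at 0.46, and 0 of 26 with Fn1 siRNA, where Apc2 was farthest at -0.79. After control transfection 1 of 26 passed, Lef1, at 1.73 (1.18 to 2.35). Between Cre- control and untreated PDX CAFs 4 were higher, with Tcf7l2 at 1.92 the farthest, and Tcf7 at -2.21 and Lef1 at -2.12 were lower.
Of the 20 β-catenin target genes, 13 were measured in KO CAFs. Notum passed 2-fold and the median was -0.17, with Apcdd1 and Wisp1 both at -0.96 and Sox9 at 0.66, so Axin2, which the list does not hold, and Notum were higher beside a median below 0. With Fn1 siRNA 0 of 13 passed, and the ratios farthest from 0 were -0.72 for Notum and 0.51 for Tcf7. After control transfection 3 were over 2-fold higher, Lef1 at 1.73, Myc at 1.45 and Jag1 at 1.28. Between Cre- control and untreated PDX CAFs 6 of 15 were higher and 4 lower, among them Nkd1, a feedback inhibitor, at 5.0 and the cyclin Ccnd1 at -3.77. Ccnd1 was at 163 to 186 CPM in the PDX cultures and at 13.5 and 10.3 CPM in Cre- control and KO CAFs.
On the list of planar cell polarity and the branch without β-catenin, 1 of 19 genes passed 2-fold in KO CAFs, Celsr3, on 6 against 31 counts (2.20, 1.01 to 3.84), and 0 of 18 with Fn1 siRNA, where Prickle2 was farthest at -0.47. Prickle1 at 4.16 and the formin Daam2 at 3.44 were higher in Cre- control than in untreated PDX CAFs, the 2 of 18 past 2-fold.

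**Figure D5:**
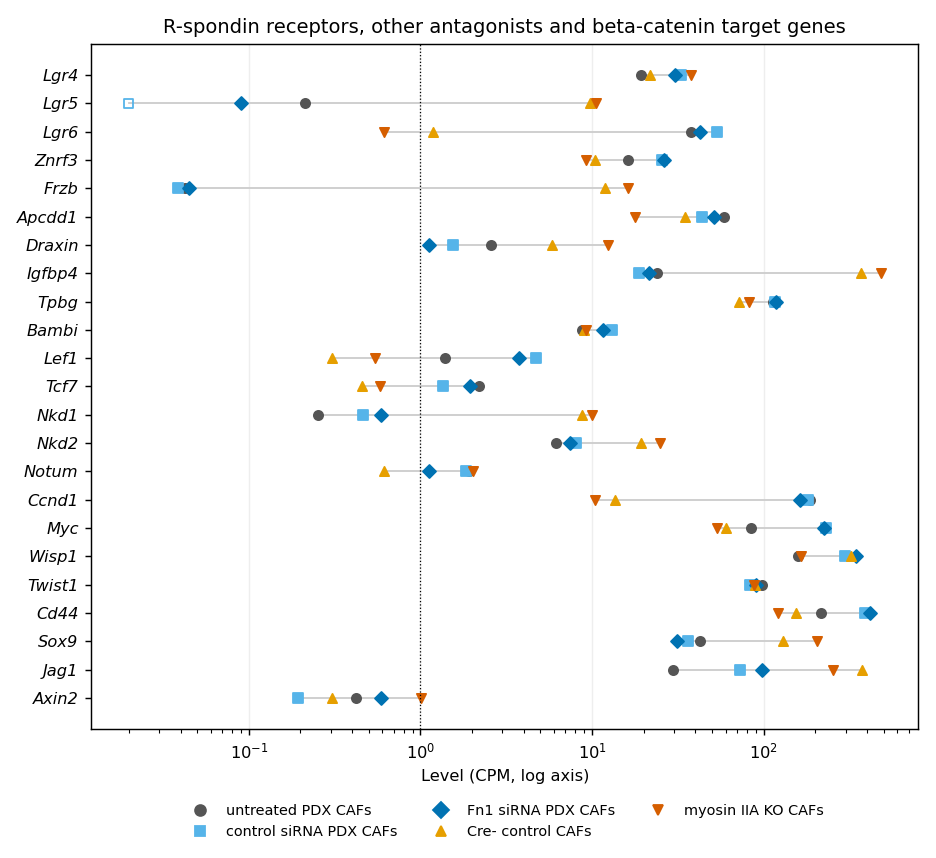
Level of R-spondin receptors, other antagonists and β-catenin target genes in CPM on a log axis, with a point for each of the 5 libraries, a gray line over their range and a dotted line at 1 CPM. Lgr5, Frzb, Igfbp4 and Nkd1 lie higher in Cre- control and KO CAFs than in the PDX cultures and Lgr6 and Ccnd1 lower; the open square is the 0 counts of Lgr5 with control siRNA, drawn at the left edge.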

How the data were processed

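RNA of 5 mouse CAF cultures was sequenced, with 1 library per condition. The authors deposited raw counts per gene for the 5 libraries in a single table, together with the transcript length. Per the submitters' processing notes the build was mm10. The aligner, the counting tool and whether strand was used were not given in the sources used here. Of the rows, 104 carry no gene name, took at most 0.0551% of counts and stayed in the totals. Gene coordinates were those of GENCODE M21 for 47 of the 48 genes, the exception being Fzd8, whose level per length was also computed with the GENCODE exon bases.

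From these counts, TMM scaling was done in edgeR 4.0.16 (R 4.3.3), per pair for ratios and across the 5 libraries for CPM, so a ratio of printed CPM differs slightly from the log2 ratio. In ratios 0.5 was added to the counts, in proportion to library size. All genes of the table that reached 1 CPM in either library of a pair were compared, and those over 2-fold were counted. The 95% intervals are exact, from the conditional binomial for ratios and from the Poisson for levels. They cover counting error only. No test was made with 1 library per condition.

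The genes and lists were chosen with earlier results of these data known. Described were the genes past 2-fold in a comparison, the 3 highest per length in each family (all of Ror, Lrp, Axin and Wif1), up to 4 genes of each list farthest from 0 in either perturbation, and Myh9 and Fn1. Other genes of the lists that are named were chosen after their values were seen. Endothelial, skeletal muscle, pericyte and mesothelial markers were also summed, at 3.89 to 8.57, 7.50 to 87.9, 1.61 to 28.1 and 0.0765 to 0.932 CPM. Ratios and counts were recomputed with upper-quartile scaling, with library totals and with size factors of DESeq2 1.42.0, after adding 5 counts, with a filter of 10 CPM or none, and for whole intervals beyond 2-fold. Detection was also set at 0.5 and 2 CPM. The calculation was checked on simulated counts with Poisson error only. These hold no variation between cultures, so the check cannot speak to it. Python 3.11.15, numpy 2.4.6, pandas 2.3.3, scipy 1.17.1 and matplotlib 3.10.9 were used, and promoter sequences came from RefSeq on GRCm38.p6.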

Additional observations from a re-analysis of the deposited data

How the results depend on the processing

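Under the 3 other scalings of library size, the number of Wnt pathway genes past 2-fold stayed within 1.5 times its value in all 4 comparisons. So did the number detected in each library at 0.5 or 2 CPM. The filter on low levels moved the counts more. Counts of Wnt pathway genes not given below stayed within 1.5 times their value. Without the filter, the myosin IIA comparison had 9 higher and 7 lower Wnt pathway genes, beside 3775 and 2615 of all 54636 rows. The fibronectin comparison had 5 and 4, beside 2451 and 2776 rows. Control siRNA against untreated PDX CAFs had 6 and 8, beside 3259 and 3002 rows. Between Cre- control and untreated PDX CAFs 8 Wnt pathway genes were lower, beside 3817 rows. Genes let in this way can rest on very few counts, such as Wnt1 with 0 in KO against 2 in Cre- control CAFs. With 10 CPM required, the Wnt pathway genes were 1 higher and 1 lower in KO CAFs, 0 higher with Fn1 siRNA, 0 higher with control siRNA and 3 lower in Cre- control CAFs. Beside them, 161 of all 9719 genes were higher and 73 lower in KO CAFs, and 8 of 9347 higher with Fn1 siRNA. With control siRNA 145 of 9562 were higher, and 555 of 9907 were lower in Cre- control CAFs. When the whole interval had to lie beyond 2-fold, 1 Wnt pathway gene was higher and 2 lower in KO CAFs, and 0 were higher with Fn1 siRNA. With control siRNA 1 was higher and 3 lower, and 3 were lower in Cre- control CAFs. Of all genes, 223 of 13326 were then higher and 83 lower in KO CAFs, and 10 of 13009 were higher with Fn1 siRNA. With control siRNA 172 of 13125 were higher and 111 lower, and 798 of 13537 were lower in Cre- control CAFs. With 5 counts added, 0 Wnt pathway genes were higher with Fn1 siRNA, beside 45 of all 13009 genes. Fewer or more genes compared follows from the filters themselves. Of 657 recomputed ratios of single genes, 7 changed sign, in Wnt9a, Lrp5 (in 2 comparisons), Fzd5, Wnt2b and Wnt2, all with ratios between -0.04 and 0.03. With 5 counts added, Wnt4 at 0.99 and Wnt2 at -0.91 in KO CAFs and Wnt4 at -0.95 in Cre- against untreated PDX CAFs came inside 2-fold, as did Lrp5 at 0.98 in the latter with library totals. The median ratio in Cre- against untreated PDX CAFs was 0.084 without a filter and 1.26 with 10 CPM. No paired analysis was possible because each condition has 1 library, and for the same reason no library could be left out. Genes with few counts, such as Axin2, Wnt11, Wnt2 and Rspo3, are limited by depth.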
